A study of Mus musculus with 20 samples.

Results

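The genes described here encode collagens that do not form the bulk fibrils of tendon but sit on them, link them to cells, or build their own networks. They are Col6a1, Col6a2 and Col6a3 of collagen VI, Col8a1 and Col8a2 of collagen VIII, Col12a1, Col14a1 and Col16a1 of collagens XII, XIV and XVI, and Col15a1 and Col18a1 of collagens XV and XVIII. The 10 genes were taken by symbol from the 24885 genes of the deposited count table, with earlier results of these data known. All 10 passed the filter on low counts that left 18918 genes for testing. Collagens XV and XVIII are usually classed as multiplexins of basement membrane zones rather than as fibril-associated collagens, and they are described as a class of their own.

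RNA was sequenced from mouse plantaris tendon, which runs from a calf muscle to the foot, in 20 libraries that form 5 groups of 4. KO libraries at day 7 and day 14 came from ScxCreERT2+/+ IGF1Rflox/flox mice, and WT libraries at day 7 and day 14 from ScxCreERT2-/- IGF1Rflox/flox mice, all given tamoxifen and a growth stimulus for that number of days. WT day 0 libraries came from ScxCreERT2-/- IGF1Rflox/flox mice with neither tamoxifen nor stimulus, so that stimulus and tamoxifen cannot be told apart in any comparison with day 0. Every mouse carried floxed alleles of the IGF1 receptor gene, the recombinase CreERT2 is driven from Scx, a gene of tendon fibroblasts (tenocytes), and no KO library without stimulus was analysed here. Neither age nor the source animal of each replicate is stated, so that p-values measure the spread between libraries, which may be technical.

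Total counts were 32.3 to 63.5 M per library. Igf1r averaged 51.3 ± 2.81 CPM in KO and 49.1 ± 2.17 CPM in WT libraries at day 7, and 53.1 ± 5.0 CPM in KO and 45.3 ± 3.63 CPM in WT libraries at day 14 (SD, n = 4 each). Counts were deposited per gene, which does not check the deletion of single exons. CPM is the count scaled to library size after TMM normalization. The tendon markers Tnmd and Thbs4 were present in every group, at means of at least 183.2 and 6058.7 CPM. In WT day 14 libraries, replicate 1 had the lowest value of the group for all 10 collagen genes, and replicate 4 the highest for 7 of them. Comparisons of genotypes at day 14 are therefore also given without these libraries.

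Collagen VI is assembled from 3 different chains into microfibrils that form beaded filaments around cells, and in tendon it is known from the matrix next to tenocytes. Collagen VIII chains are short and form open networks, best known from the eye and from vessel walls. Collagens XII and XIV bind the surface of collagen I fibrils and are known to affect fibril packing in tendon, and collagen XVI is found with fibrils or with microfibrils according to the tissue. Collagens XV and XVIII carry sugar chains and connect basement membranes of vessels, muscle fibres and nerves to the matrix around them, and endostatin is the cleaved end of collagen XVIII.

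The upstream sequence of 5 of the genes is shown because the results turn on them: Col6a1, Col6a2 and Col6a3 were higher in KO at day 7, Col8a1 had the largest change with the stimulus, and Col15a1 was the one gene that fell. The sequences are from RefSeq windows on GRCm38.p6, read 5′ to 3′ on the strand of the gene and ending at the annotated start, for up to 250 bases. Capitals mark the E-box CANNTG, which Scx-type factors can bind, the GC box GGGCGG and the TATA box TATAAA, each searched on both strands, so that CCGCCC is a GC box on the opposite strand. The Col6a1 sequence is shortened to the 126 bases ahead of the GENCODE gene start. It lies at chr10:76726169-76726294 on the minus strand, Col6a2 at chr10:76623631-76623880 on the minus strand, Col6a3 at chr1:90843972-90844221 on the minus strand, Col8a1 at chr16:57754738-57754987 on the minus strand and Col15a1 at chr4:47207762-47208011 on the plus strand.
Col6a1: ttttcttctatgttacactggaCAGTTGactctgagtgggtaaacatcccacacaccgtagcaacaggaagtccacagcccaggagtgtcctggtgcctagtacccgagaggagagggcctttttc
Col6a2: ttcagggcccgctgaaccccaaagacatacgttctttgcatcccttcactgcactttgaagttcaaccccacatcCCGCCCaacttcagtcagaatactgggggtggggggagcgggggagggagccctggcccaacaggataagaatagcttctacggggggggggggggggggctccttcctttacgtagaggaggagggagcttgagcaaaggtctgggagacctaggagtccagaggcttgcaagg
Col6a3: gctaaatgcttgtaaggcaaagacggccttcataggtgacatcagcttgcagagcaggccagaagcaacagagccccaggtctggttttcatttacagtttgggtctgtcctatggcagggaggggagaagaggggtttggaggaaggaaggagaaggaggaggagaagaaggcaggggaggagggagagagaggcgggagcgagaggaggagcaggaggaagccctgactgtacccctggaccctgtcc
Col8a1: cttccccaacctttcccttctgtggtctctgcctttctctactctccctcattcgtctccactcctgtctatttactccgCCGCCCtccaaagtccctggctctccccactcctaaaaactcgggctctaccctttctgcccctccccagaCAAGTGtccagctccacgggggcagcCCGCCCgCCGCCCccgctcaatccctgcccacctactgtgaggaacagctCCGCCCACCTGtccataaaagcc
Col15a1: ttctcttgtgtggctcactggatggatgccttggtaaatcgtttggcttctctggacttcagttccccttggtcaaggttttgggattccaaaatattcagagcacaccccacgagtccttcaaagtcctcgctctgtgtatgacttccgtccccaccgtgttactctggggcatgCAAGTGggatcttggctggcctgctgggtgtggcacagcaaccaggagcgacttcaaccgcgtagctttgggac

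Of the 10 genes, 8 had a RefSeq window. An E-box was present in 4 of the 8, against 66.2% of all 32851 windows of the same length, and a GC box in 5, against 32.7% of all windows. The Col8a1 sequence held 4 GC boxes and 2 E-boxes, and its last GC box overlaps its last E-box. TATAAA was found in none of the 8, against 12.4% of all windows. The AP-1 motif TGANTCA was found in 1, against 6.75%, and the SMAD element CAGAC in 3, against 42.2%. The Col6a1 and Col6a2 sequences had no capital motif in common, although these genes had the most similar profile over libraries of any pair among the 10.

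The genes lie in GRCm38 (GENCODE vM21 annotation) on chromosome 10 from 76708792 to 76726168 (Col6a1), 76595762 to 76623630 (Col6a2) and 77052178 to 77166548 (Col18a1), all on the minus strand. Col6a3 spans 90765923 to 90843971 of chromosome 1, Col12a1 79598991 to 79718831 of chromosome 9 and Col8a1 57624258 to 57754737 of chromosome 16, also on the minus strand. On the plus strand, Col14a1 spans 55307750 to 55520803 of chromosome 15, and chromosome 4 holds Col15a1 (47208161 to 47313167), Col8a2 (126286793 to 126314330) and Col16a1 (130047840 to 130099283). Counts were deposited per gene. The one exon overlap with another gene was 14 bases between Col15a1 and the antisense Gm12426, which averaged 0.15 CPM.

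**Figure D1:**
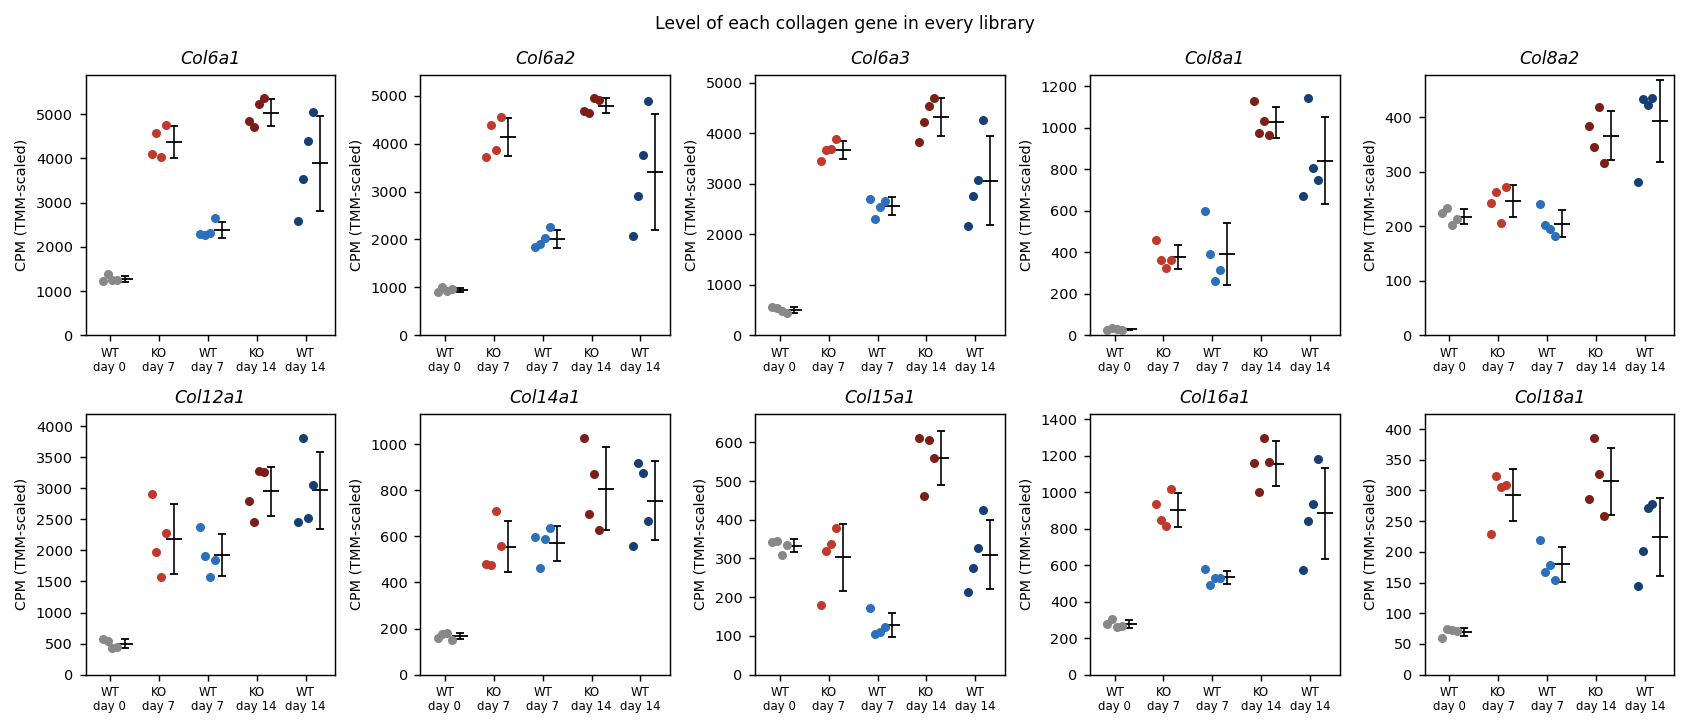
Level of each of the 10 collagen genes in every library, in TMM-scaled CPM (y axis, from 0), for the 5 groups (x axis). Each point is 1 library and the bar to its right gives the group mean and SD (n = 4). Col8a1 lay between 25.6 and 34.0 CPM at WT day 0 and at or above 260.5 CPM elsewhere, Col15a1 had its lowest values at WT day 7, and the WT day 14 libraries were spread over a wide range for most genes.

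Levels of different genes were compared per kilobase of principal transcript. In WT day 0 tendon the level of Col6a1 was highest, at 310.0 ± 17.1 CPM per kb, followed by Col6a2 at 240.2 ± 11.2 (SD, n = 4 each), without overlap between these neighbours. Col15a1 (64.3), Col6a3 (56.3), Col16a1 (53.2), Col8a2 (50.3) and Col12a1 (42.9 CPM per kb) came next, and each of these 5 overlapped its neighbour in the order. Col14a1 stood at 29.4 ± 2.49, Col18a1 at 14.5 ± 1.43 and Col8a1 last at 5.61 ± 0.73 CPM per kb, each without overlap with the one above. After the stimulus Col6a1, Col6a2, Col6a3 and Col12a1 held the first 4 places in all 4 groups, and Col8a1 stood sixth in KO day 14 and WT day 14 tendon, at 200.8 ± 14.8 and 164.8 ± 40.7 CPM per kb. From day 7 on, the libraries' values of Col6a1 and Col6a2 overlapped in every group on this scale, whereas with merged-exon lengths, in which Col6a2 is far longer, they overlapped in none (KO day 14 means of 1149.4 CPM per kb for Col6a1 and 576.1 for Col6a2).

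The WT time course asks how these genes change as tendon responds to the growth stimulus. At WT day 7 against WT day 0, 8 of the 10 genes rose and Col15a1 fell, with a median log2 change of 1.23, against 0.02 over all genes tested. Among all genes, 64.1% were called in this comparison, 32.3% higher and 31.8% lower (edgeR quasi-likelihood test, Benjamini-Hochberg adjusted p below 0.05 over all genes, as for every call below). At WT day 14 against WT day 0, 9 genes rose and none fell, with a median of 1.77, where 54.3% of all genes were called, 28% higher and 26.2% lower. At WT day 14 against WT day 7, 7 genes rose, with a median of 0.72, where 30.4% of all genes were called, 16% higher and 14.3% lower.

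Of the collagen VI chains, Col6a1 had 1222.0, 1375.2, 1246.3 and 1241.3 CPM at WT day 0, 2280.7, 2272.5, 2314.0 and 2646.1 CPM at day 7, and 2572.2, 3522.8, 4397.7 and 5052.2 CPM at day 14. The values did not overlap between day 0 and either later day, and overlapped between day 14 and day 7. Its log2 change was 0.90 ± 0.15 at day 7 against day 0 (SE, edgeR adjusted p = 2.3e-05) and 0.71 ± 0.15 at day 14 against day 7 (edgeR adjusted p = 0.00122). Col6a2 rose by 1.08 ± 0.17 at day 7 against day 0 and by 0.76 ± 0.17 at day 14 against day 7 (edgeR adjusted p = 1.9e-05 and 0.00237).

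Col6a3, whose product is the longest of the collagen VI chains, had 562.3, 544.1, 479.2 and 440.9 CPM at WT day 0, 2702.1, 2310.0, 2537.3 and 2667.8 CPM at day 7, and 2161.7, 2758.3, 3079.4 and 4255.8 CPM at day 14. Its day 0 libraries lay far below the rest, while those of the later days overlapped. It rose 5.04-fold at day 7 against day 0 (log2 change 2.33 ± 0.16, edgeR adjusted p = 2.99e-10), more than Col6a1 and Col6a2. Its change at day 14 against day 7 was 0.26 ± 0.15 (edgeR adjusted p = 0.195), and without WT day 14 replicate 1 it was 0.40 with an adjusted p of 0.0282. That was the 1 call in the 8 fits that each left out a library, with log2 changes of 0.062 to 0.40 and adjusted p up to 0.742. Replicate 1 was the lowest WT day 14 library, so leaving it out raises this change by construction.

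The chains' proportions therefore differed between groups. Per kilobase, the ratio of Col6a3 to Col6a1 was 0.162 to 0.210 in WT day 0 libraries, 0.459 to 0.540 in WT day 7 and 0.319 to 0.384 in WT day 14 libraries, with no overlap between any pair of these groups. The ratio of Col6a2 to Col6a1 was 0.759 to 0.804, 0.835 to 0.910 and 0.836 to 1.0 at the same days, without overlap between day 0 and the later days. These ratios were not tested, and they depend on the transcript lengths chosen, which scale all libraries alike.

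Collagen VIII showed the widest range. Col8a1 had 26.8, 34.0, 28.2 and 25.6 CPM at WT day 0, 600.0, 391.0, 260.5 and 314.8 CPM at day 7, and 671.4, 1142.5, 806.6 and 746.0 CPM at day 14. No 2 of these groups overlapped. It rose 13.6-fold at day 7 against day 0 and 29.3-fold at day 14 against day 0 (log2 changes 3.77 ± 0.23 and 4.87 ± 0.24, edgeR adjusted p = 1.05e-10 and 1.36e-11), the largest changes among the 10 genes.

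Col8a2, the other chain of collagen VIII, had 223.7, 232.6, 201.9 and 212.5 CPM at WT day 0, 240.0, 202.6, 195.2 and 181.5 CPM at day 7, and 281.2, 433.1, 423.2 and 434.9 CPM at day 14. Day 7 and day 0 overlapped, with a log2 change of -0.09 ± 0.13 (edgeR adjusted p = 0.576, 95% interval -0.36 to 0.19). It rose by 0.94 ± 0.13 at day 14 against day 7 (edgeR adjusted p = 4.39e-05). The per-kilobase ratio of Col8a1 to Col8a2 was 0.102 to 0.124 in WT day 0 libraries, 1.13 to 2.12 in WT day 7 libraries and 1.45 to 2.24 in WT day 14 libraries, so that Col8a2 was the more abundant transcript at day 0 on this scale. With merged-exon lengths Col8a2 was also the higher one at day 0, at 48.5 ± 2.97 CPM per kb against 3.66 ± 0.48 for Col8a1 (SD, n = 4), but the order at day 7 depended on the length. It was then 48.2 ± 7.19 for Col8a1 and 54.8 ± 6.49 for Col8a2 in KO day 7 libraries, and 50.0 ± 19.0 and 45.6 ± 5.57 CPM per kb for the same genes in WT day 7 libraries.

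**Figure D2:**
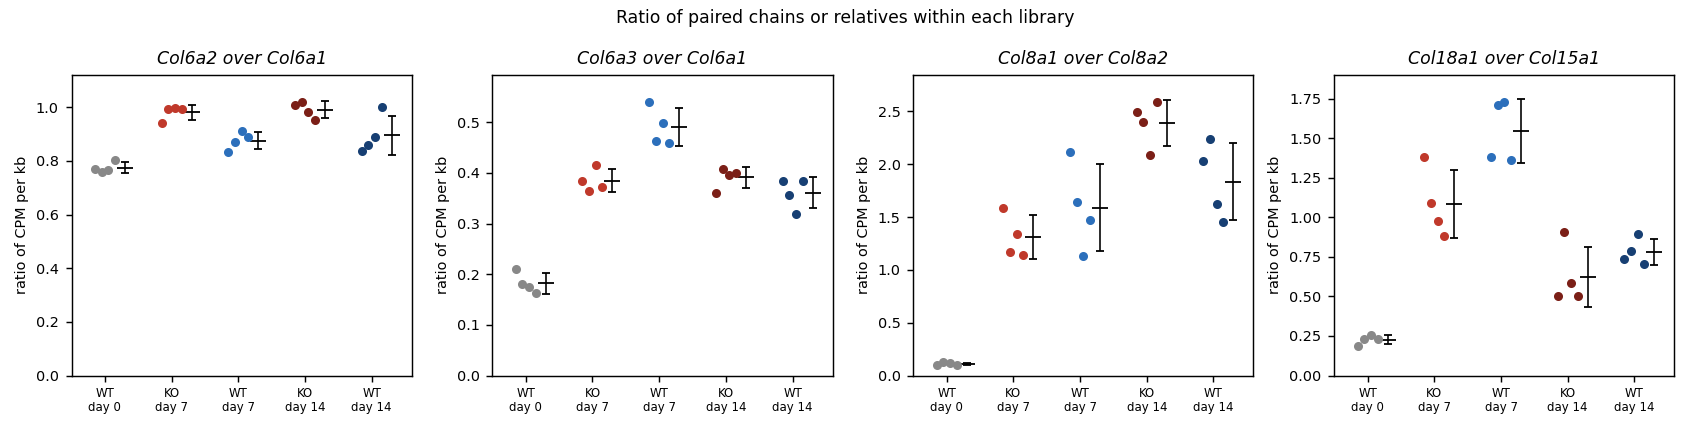
Ratio within each library of the per-kilobase levels of 2 related genes (y axis, from 0), for the 5 groups (x axis), with the mean and SD of 4 libraries beside the points. Col6a3 over Col6a1 was highest in WT day 7 libraries, Col8a1 over Col8a2 lay at 0.102 to 0.124 at WT day 0 and at or above 1.13 elsewhere, and Col18a1 over Col15a1 was at most 0.256 at WT day 0.

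The fibril-associated genes rose together at day 7. Col12a1 had 572.9, 535.3, 425.6 and 440.2 CPM at WT day 0, 2377.4, 1909.8, 1568.3 and 1846.7 CPM at day 7, and 2464.9, 3820.9, 2530.0 and 3054.1 CPM at day 14, with no overlap between groups. It rose 3.90-fold at day 7 against day 0 and by a further 0.62 ± 0.18 on the log2 scale at day 14 against day 7 (edgeR adjusted p = 3.16e-08 and 0.0141). The second call is lost without WT day 14 replicate 2 (0.48, adjusted p = 0.0601) and with a muscle score as a covariate (0.68, adjusted p = 0.0629).

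Col14a1 had 157.5, 176.7, 180.9 and 152.1 CPM at WT day 0, 598.1, 460.9, 588.2 and 635.3 CPM at day 7, and 560.6, 919.7, 875.3 and 666.9 CPM at day 14, with day 14 and day 7 overlapping. It rose 3.42-fold at day 7 against day 0 (edgeR adjusted p = 5.6e-08), while its change at day 14 against day 7 was 0.41 ± 0.17 (edgeR adjusted p = 0.0837, and 0.0281 without WT day 14 replicate 1). Leaving out that lowest WT day 14 library raises the change by construction. It gave the 1 call in the 8 fits that each left out a library, with log2 changes of 0.30 to 0.53 and adjusted p up to 0.241. Col16a1 rose 1.92-fold at day 7 against day 0 and by 0.73 ± 0.15 on the log2 scale at day 14 against day 7 (edgeR adjusted p = 2.04e-05 and 0.00122), from libraries of 259.1 to 303.5 CPM at day 0, 491.4 to 580.0 CPM at day 7 and 574.2 to 1183.2 CPM at day 14.

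The multiplexin genes moved in opposite directions at day 7. Col15a1 had 341.7, 345.5, 308.5 and 335.2 CPM at WT day 0, 171.5, 104.8, 110.9 and 122.7 CPM at day 7, and 212.1, 276.5, 327.8 and 424.4 CPM at day 14. All day 7 libraries lay below both other days. It fell at day 7 against day 0 (log2 change -1.38 ± 0.22, edgeR adjusted p = 1.83e-05) and rose 2.43-fold at day 14 against day 7 (adjusted p = 0.000257), and day 14 and day 0 overlapped (log2 change -0.10 ± 0.21, edgeR adjusted p = 0.711, 95% interval -0.55 to 0.34).

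Col18a1 had 59.1, 73.8, 73.1 and 71.0 CPM at WT day 0, 219.4, 166.5, 178.0 and 154.4 CPM at day 7, and 144.3, 202.0, 271.7 and 278.2 CPM at day 14. It rose 2.59-fold at day 7 against day 0 (edgeR adjusted p = 2e-06), and its change at day 14 against day 7 was 0.32 ± 0.18 (edgeR adjusted p = 0.186, and 0.0249 without WT day 14 replicate 1). Leaving out that lowest WT day 14 library raises the change by construction. It gave the 1 call in the 8 fits that each left out a library, with log2 changes of 0.20 to 0.49 and adjusted p up to 0.453. The per-kilobase ratio of Col18a1 to Col15a1 was 0.187 to 0.256 in WT day 0 libraries, 1.36 to 1.73 in WT day 7 libraries and 0.707 to 0.895 in WT day 14 libraries.

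Other tissue signals moved with these changes. The summed level of 10 skeletal muscle fibre genes was 22595.8 to 58254.9 CPM in WT day 0 libraries, 178.7 to 1430.4 CPM in WT day 7 and 2396.1 to 19946.6 CPM in WT day 14 libraries, and none of the 10 had 0 counts in a group. With the muscle score, the mean log2 CPM of those genes, as a covariate, the same number of collagen genes, 9, was called at WT day 7 against WT day 0, while 5876 genes in all were called, against 12133 without the covariate. The score was 9.954 to 11.516 in WT day 0 and 2.99 to 6.062 in WT day 7 libraries, without overlap. That fit therefore cannot tell muscle apart from day. Of 8 macrophage markers, all 8 rose at day 7 against day 0, and of 6 Schwann cell and 6 adipocyte markers all fell. Among 8 endothelial markers 4 fell and none rose, and among 8 tenocyte markers 1 rose and 3 fell. Sums of 6 chondrocyte markers, of which 2 rose and 2 fell, were 423.8 to 532.2 CPM in WT day 7 libraries, against 7037.5 to 10243.2 CPM in WT day 0 libraries. Nearly all of the WT day 0 sum was Chad, which averaged 8632.6 CPM at WT day 0 and 217.2 CPM at WT day 7. Acan went the other way, from a mean of 8.83 CPM at WT day 0 to 203.4 CPM at WT day 7. Sums of 8 pericyte and smooth muscle markers, of which 2 rose and 5 fell, were 780.8 to 1294.8 CPM in WT day 7 libraries, against 1354.6 to 2753.6 CPM in WT day 0 libraries. Most of the WT day 0 sum was Des, which averaged 1554.6 CPM at WT day 0 and 172.7 CPM at WT day 7. Acta2 went the other way, from a mean of 85.6 CPM at WT day 0 to 511.5 CPM at WT day 7. Sums of 8 markers of paratenon and progenitor fibroblasts, of which 2 rose and 4 fell, were 1934.2 to 2498.2 CPM in WT day 7 libraries, against 2771.8 to 3090.9 CPM in WT day 0 libraries. In bulk tissue, fewer cells of a type and less RNA per cell cannot be told apart, and the part of these signals in the collagen values was not tested.

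**Figure D3:**
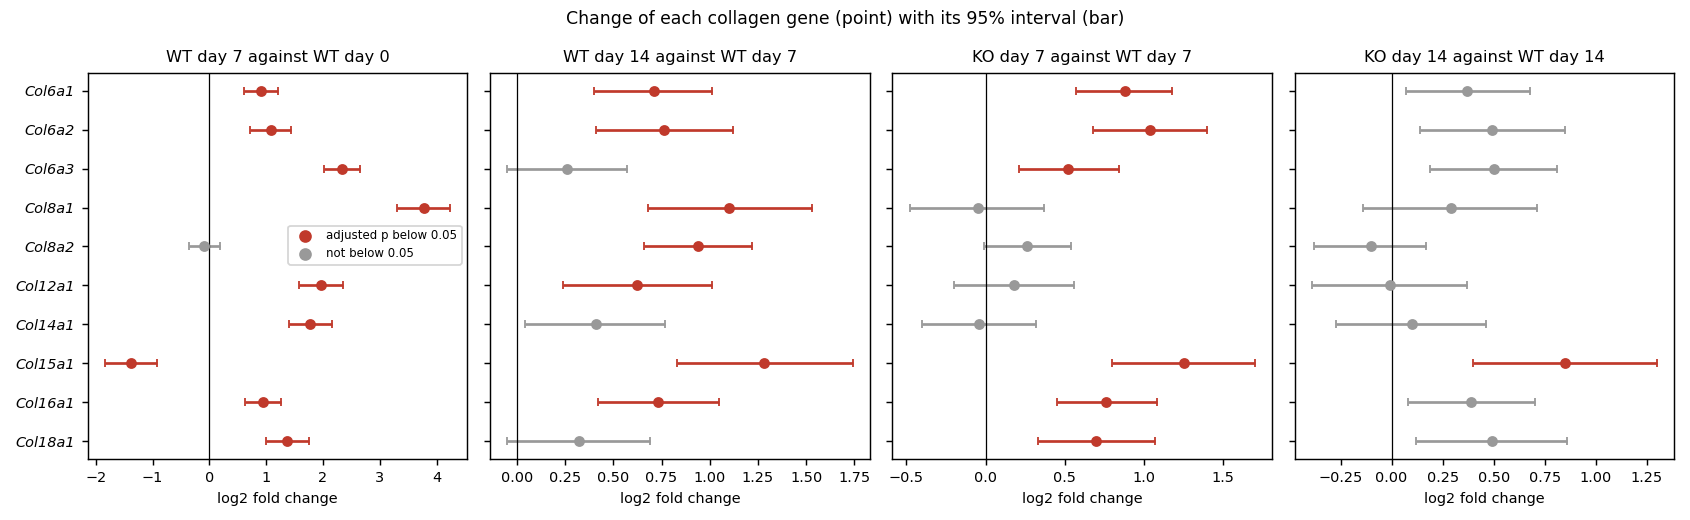
Log2 fold change of each collagen gene (x axis, each panel with its own range) in 4 comparisons, with bars for the 95% interval. Red marks an edgeR adjusted p below 0.05. Col15a1 alone lay to the left of 0 among the called genes at WT day 7 against WT day 0, 6 genes were called at KO day 7 against WT day 7, and Col15a1 was the one called at KO day 14 against WT day 14.

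At day 7 the comparison of genotypes asks how KO and WT tendons differ under the stimulus. KO and WT mice differ in the ScxCreERT2 allele as well as in the targeting of Igf1r, so these cannot be told apart. With no KO library without stimulus, a different response cannot be told apart from a difference present before it. In KO day 7 against WT day 7 tendons, 6 of the 10 genes rose, namely all 3 collagen VI chains, Col15a1, Col16a1 and Col18a1, and none fell. The median log2 change of the 10 was 0.61, against -0.01 over all genes tested, of which 14.8% were called, 9.39% higher and 5.42% lower. For each of the 6, every KO library lay above every WT library (two-sided exact permutation p = 0.0286, the smallest that 4 against 4 libraries give). The 6 were called from these same libraries, so this separation is not a second line of support. The share of all genes without overlap is not given here.

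Col6a1 had 4108.0, 4581.8, 4032.1 and 4752.2 CPM in KO day 7 libraries, against 2280.7, 2272.5, 2314.0 and 2646.1 CPM in WT day 7 libraries. It was 1.84-fold higher (log2 change 0.88 ± 0.15, edgeR adjusted p = 0.000813). Col6a2 had 3720.9, 4388.9, 3872.5 and 4551.8 CPM in KO day 7 libraries, against 1834.6, 1905.2, 2027.2 and 2265.9 CPM in WT day 7 libraries. The groups were well apart, and Col6a2 was 2.06-fold higher (log2 change 1.04 ± 0.17, edgeR adjusted p = 0.000763).

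Col6a3 had 3457.4, 3672.4, 3681.8 and 3886.3 CPM in KO day 7 libraries, against 2702.1, 2310.0, 2537.3 and 2667.8 CPM in WT day 7 libraries. Its rise was smaller, 1.44-fold (log2 change 0.52 ± 0.15, edgeR adjusted p = 0.024), and the call is lost without WT day 7 replicate 2 (0.49, adjusted p = 0.0753), without KO day 7 replicate 4 (0.50, adjusted p = 0.0675) or with the muscle score as a covariate (0.46, adjusted p = 0.199), with log2 changes close to that of all libraries. Per kilobase, the ratio of Col6a3 to Col6a1 was 0.365 to 0.416 in KO day 7 libraries, against 0.459 to 0.540 in WT day 7 libraries. The ratio of Col6a2 to Col6a1 was 0.940 to 0.997 in KO day 7 libraries, against 0.835 to 0.910 in WT day 7 libraries, so neither ratio overlapped between the genotypes.

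Col15a1 had 178.9, 319.6, 337.3 and 378.1 CPM in KO day 7 libraries, against 171.5, 104.8, 110.9 and 122.7 CPM in WT day 7 libraries. KO replicate 1 lay just above the highest WT library, and the other 3 KO libraries stood above the lowest WT day 0 library. Col15a1 was 2.38-fold higher in KO (log2 change 1.25 ± 0.22, edgeR adjusted p = 0.00126), the largest genotype difference among the 10 genes. Col18a1 had 229.4, 323.5, 306.0 and 308.9 CPM in KO day 7 libraries, against 219.4, 166.5, 178.0 and 154.4 CPM in WT day 7 libraries, and was 1.63-fold higher (log2 change 0.70 ± 0.18, edgeR adjusted p = 0.014). With the muscle score as a covariate its change was 0.71, with an adjusted p of 0.101.

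Col16a1 had 935.5, 845.8, 813.4 and 1014.9 CPM in KO day 7 libraries, against 580.0, 491.4, 527.3 and 530.4 CPM in WT day 7 libraries. It was 1.70-fold higher in KO (log2 change 0.76 ± 0.15, edgeR adjusted p = 0.00308). The groups stood well apart.

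The collagen XII, XIV and VIII genes were not called at day 7 between genotypes. Col14a1 had 480.1, 476.7, 710.3 and 556.8 CPM in KO day 7 libraries, against 598.1, 460.9, 588.2 and 635.3 CPM in WT day 7 libraries, with overlapping values. Its log2 change was -0.04 ± 0.17 (edgeR adjusted p = 0.91), with a 95% interval of -0.40 to 0.32. The intervals were -0.20 to 0.56 for Col12a1, -0.48 to 0.37 for Col8a1 and -0.01 to 0.54 for Col8a2, and these do not show that the genotypes are alike.

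Col1a1, the main chain of collagen I fibrils, was also higher, at a mean of 39903.0 CPM in KO day 7 and 19524.2 CPM in WT day 7 libraries (edgeR adjusted p = 0.0107). Per kilobase, Col14a1 was 1.26% to 1.89% of Col1a1 in KO day 7 libraries, against 2.74% to 3.60% in WT day 7 libraries, without overlap. Col12a1 was 2.06% to 4.03% of Col1a1 in KO day 7 libraries and 3.60% to 7.06% in WT day 7 libraries, which overlapped. Col6a1 was 14.9% to 17.9% of Col1a1 in KO and 14.9% to 19.0% in WT libraries.

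Markers of other tissue moved with genotype at day 7. Of 10 skeletal muscle fibre genes, 9 were called higher in KO day 7, and their summed level was 4445.7 to 11090.5 CPM in KO day 7 libraries, against 178.7 to 1430.4 CPM in WT day 7 libraries. With the muscle score as a covariate, 4 of the 6 collagen calls remained, with changes of 0.85 for Col6a1, 0.99 for Col6a2, 1.12 for Col15a1 and 0.79 for Col16a1. The changes of the other 2 were 0.46 for Col6a3 and 0.71 for Col18a1, and 924 genes in all were called in that fit, against 2802 without the covariate. The score was 2.99 to 6.062 in WT day 7 and 7.619 to 8.925 in KO day 7 libraries, without overlap. Muscle and genotype therefore cannot be told apart by that fit. Of 8 tenocyte markers 4 were called higher, with sums of 49225.1 to 59784.6 CPM in KO day 7 libraries, against 25007.1 to 31668.4 CPM in WT day 7 libraries. That list holds Col1a1 and Scx, and Scx itself, the locus of the recombinase, averaged 735.6 ± 280.6 CPM in KO and 50.5 ± 5.52 CPM in WT libraries at day 7 (SD, n = 4 each). Of 6 chondrocyte markers 4 were called higher, with sums of 1038.9 to 1457.8 CPM in KO day 7 libraries, against 423.8 to 532.2 CPM in WT day 7 libraries. Of 8 endothelial, 8 macrophage and 6 adipocyte markers none was called, and of 8 pericyte and smooth muscle markers 2 were called higher and 1 lower. Among 8 markers of paratenon and progenitor fibroblasts 3 were called higher, and among 6 Schwann cell markers 1, with none lower in either list. The part of muscle RNA in the collagen differences is not known, and that of tenocyte or cartilage RNA was not tested.

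At day 14, 1 of the 10 genes, Col15a1, was called higher in KO than in WT, and none lower. The median log2 change of the 10 was 0.38, against -0.01 over all genes tested, of which 1.78% were called, 1.06% higher and 0.719% lower. Col15a1 had 612.5, 460.9, 606.3 and 558.7 CPM in KO day 14 libraries, against 212.1, 276.5, 327.8 and 424.4 CPM in WT day 14 libraries, without overlap. It was 1.80-fold higher (log2 change 0.85 ± 0.21, edgeR adjusted p = 0.0486, two-sided exact permutation p = 0.0286). The adjusted p lay between 0.00927 and 0.16 when each library was left out in turn and was below 0.05 in 1 of those 8 fits, the one without WT day 14 replicate 4, while the log2 change lay between 0.71 and 1.04. The call was also lost with no filter, limma-voom or the compared groups alone (adjusted p = 0.0618, 0.0502 and 0.112).

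The other genes overlapped between genotypes at day 14. Col6a1 had 4840.1, 4716.4, 5222.1 and 5358.1 CPM in KO day 14 libraries, against 2572.2, 3522.8, 4397.7 and 5052.2 CPM in WT day 14 libraries (log2 change 0.37 ± 0.15, edgeR adjusted p = 0.198). Its KO libraries lay close together, and the WT libraries spread 1.96-fold between lowest and highest. Col6a2 had 4689.7, 4635.0, 4950.6 and 4911.7 CPM in KO day 14 libraries, against 2070.3, 2918.1, 3766.9 and 4884.0 CPM in WT day 14 libraries, with 2 KO libraries above all WT ones (log2 change 0.49 ± 0.17, edgeR adjusted p = 0.149). With all libraries, the log2 change was 0.39 ± 0.15 for Col16a1 and 0.49 ± 0.18 for Col18a1 (edgeR adjusted p = 0.193 and 0.166).

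Col6a3 had 3831.0, 4223.4, 4543.0 and 4693.8 CPM in KO day 14 libraries, against 2161.7, 2758.3, 3079.4 and 4255.8 CPM in WT day 14 libraries (log2 change 0.50 ± 0.15, edgeR adjusted p = 0.096). WT day 14 replicate 4 alone reached into the KO range. Without it, 6 of the 10 genes were called higher in KO, namely Col6a1, Col6a2, Col6a3, Col15a1, Col16a1 and Col18a1, which are the 6 called at day 7. Their adjusted p lay between 0.00312 for Col6a3 and 0.0478 for Col18a1 (edgeR), and 1672 genes in all were called, against 337 with all libraries. Replicate 4 was the highest WT day 14 library for all 6, so leaving it out raises their difference by construction. Without WT day 14 replicate 1 instead, Col15a1 lost its call (0.71, edgeR adjusted p = 0.16) and no other of the 10 gained one. Without both WT day 14 replicates 1 and 4, a choice made after seeing the data, 2 of the 10 were called, Col6a2 (0.52, adjusted p = 0.0372) and Col6a3 (0.57, adjusted p = 0.0219), and Col15a1 had 0.89 with an adjusted p of 0.0683. In that fit 363 genes in all were called.

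**Figure D4:**
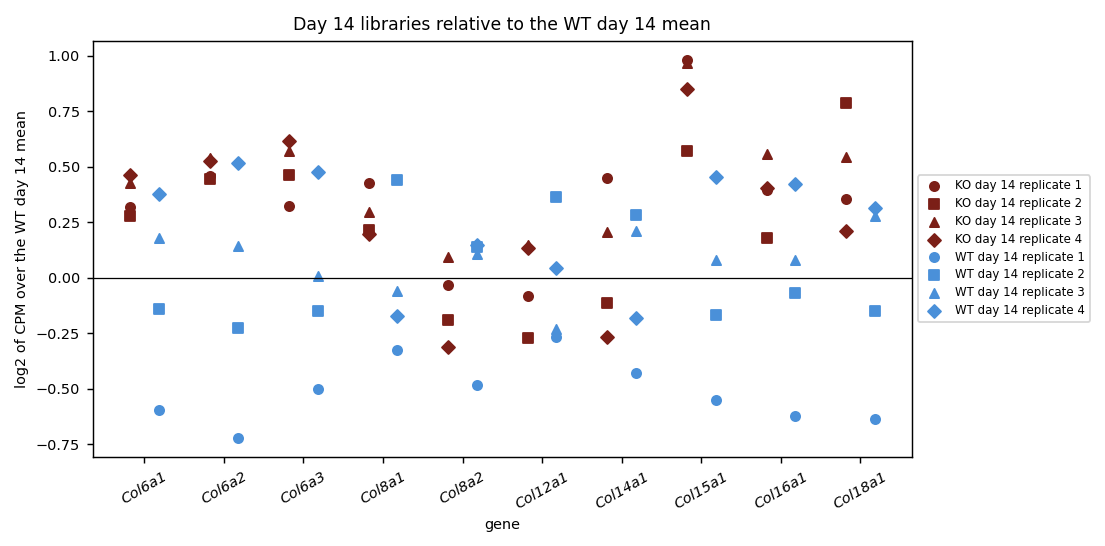
Each day 14 library's value of the 10 genes as log2 of its CPM over the WT day 14 mean (y axis), by gene (x axis), with a symbol for each replicate number. WT replicate 1 was lowest of the WT libraries for all 10 genes and WT replicate 4 highest for 7, and for Col15a1 all KO libraries lay above all WT libraries.

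WT day 14 replicate 4 also had 84320.3 CPM for the summed tenocyte markers, above the range of 66729.1 to 71352.6 CPM of KO day 14 libraries, while the lowest WT day 14 library had 32315.7 CPM. That list holds Col1a1, which reached 63886.5 CPM in WT day 14 libraries, against at most 49753.8 CPM in KO day 14 libraries. In WT day 14 replicate 4, Col14a1 was 666.9 CPM, within its group range of 560.6 to 919.7 CPM. Per kilobase it was 1.09% of Col1a1 there, against 3.01% to 3.74% in the other WT day 14 libraries. Muscle marker sums overlapped between genotypes at day 14, at 1334.1 to 22619.4 CPM in KO and 2396.1 to 19946.6 CPM in WT libraries. Col8a2 (log2 change -0.10 ± 0.13), Col12a1 (-0.01 ± 0.18), Col14a1 (0.10 ± 0.17) and Col8a1 (0.29 ± 0.20) had adjusted p of 0.514 to 0.989 at day 14.

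In KO tendons alone, day 14 against day 7, 4 of the 10 genes rose, Col8a1, Col8a2, Col14a1 and Col15a1, and none fell. Among all genes 15.7% were called, 7.09% higher and 8.57% lower. Col8a1 had 1129.9, 975.2, 1032.5 and 965.7 CPM in KO day 14 libraries, against 457.3, 364.6, 324.4 and 364.3 CPM in KO day 7 libraries, and rose 2.72-fold (log2 change 1.44 ± 0.21, edgeR adjusted p = 0.000222). The groups stood well apart. Col8a2 had 384.8, 344.5, 418.8 and 316.7 CPM in KO day 14 libraries, against 243.2, 263.2, 205.9 and 271.2 CPM in KO day 7 libraries, and rose 1.49-fold (adjusted p = 0.00635).

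Col15a1 rose 1.84-fold in KO day 14 against KO day 7 (edgeR adjusted p = 0.0095), also without overlap. Col14a1 rose 1.45-fold with overlapping libraries (adjusted p = 0.0407), and its call held in 3 of the 8 fits that left out a library. The log2 changes of the collagen VI chains were 0.20 ± 0.15 for Col6a1, 0.21 ± 0.17 for Col6a2 and 0.23 ± 0.15 for Col6a3 (edgeR adjusted p = 0.368, 0.429 and 0.305). Over the same days in WT, Col6a1 and Col6a2 rose and Col6a3 did not pass.

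Whether the genotype difference changed between the days was tested as an interaction, the difference in KO day 14 against WT day 14 minus that in KO day 7 against WT day 7. None of the 10 genes and none of the 18918 genes (0%) was called by edgeR, with 2039 genes, among them Col6a1 and Col6a2, at an unadjusted p below 0.05, 190 genes called by DESeq2 and 0 by limma-voom. Col6a1 had -0.50 ± 0.21 and Col6a2 -0.55 ± 0.24 (edgeR adjusted p = 0.39 and 0.428). For Col15a1 the value was -0.40 ± 0.30, with a 95% interval of -1.03 to 0.23. A call at day 7 that is absent at day 14 is thus not shown to be a difference between the days.

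The other 34 collagen genes in the table give the setting. At WT day 7 against WT day 0, 13 rose and 14 fell, with a median log2 change of 0.29. Those with the smallest p were Col3a1 (2.56 ± 0.14), a fibrillar collagen of early repair tissue, Col5a2 (2.10 ± 0.13) and Col5a1 (2.12 ± 0.19), which are chains of the fibril-regulating collagen V, and on the falling side Col13a1 (-2.03 ± 0.16) and the basement membrane chains Col4a4 (-2.78 ± 0.25) and Col4a3 (-2.81 ± 0.26). At WT day 14 against WT day 0, 16 rose and 10 fell, led by Col3a1 (2.91), Col5a2 (2.44), Col5a1 (2.45), Col27a1 (1.82) and Col11a1 (2.79), with Col4a4 at -2.17.

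At WT day 14 against WT day 7, 12 of the 34 rose and none fell, among them Col13a1 (1.08 ± 0.15), Col22a1 (3.93 ± 0.68), a collagen of muscle-tendon junctions, Col24a1 (1.03 ± 0.20), Col11a1 (1.24 ± 0.25), Col1a2 (0.82 ± 0.19) and the cartilage collagen Col2a1 (4.29 ± 0.96). In KO day 7 against WT day 7, 16 of the 34 rose and none fell, with a median of 0.81, so that other collagen genes rose in the same comparison. Those with the smallest p were Col13a1 (0.90 ± 0.15), Col2a1 (5.99 ± 1.03), Col5a1 (0.96 ± 0.18), Col1a2 (0.83 ± 0.19), Col24a1 (0.87 ± 0.20) and Col4a2 (0.83 ± 0.19). At day 14 Col5a1 alone was called between genotypes (0.73 ± 0.18, edgeR adjusted p = 0.0434), and in KO day 14 against KO day 7 Col4a4 (0.94) and Col11a1 (0.74) rose.

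The 3 further chains of collagen VI were low, and were picked out here with their values in view. Col6a6 averaged 15.3 ± 8.72 CPM in KO day 7 and 4.40 ± 1.13 CPM in WT day 7 libraries (SD, n = 4 each; edgeR adjusted p = 0.0158), and 21.9 ± 5.40 CPM at WT day 0. Unlike Col6a3 it fell at WT day 7 against WT day 0 (log2 change -2.31 ± 0.46, edgeR adjusted p = 0.000319). The means of Col6a4 were at most 0.953 CPM, and those of Col6a5 at most 4.40 CPM.

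Among 10 genes whose products bind collagen VI or sit with it at the cell surface, 9 were tested, and Matn1 was filtered out as low. At WT day 7 against WT day 0, 3 rose and 3 fell. The small proteoglycan gene Bgn rose by 1.38 ± 0.12, and the matrilin adaptor genes Matn2 and Matn3 by 0.60 ± 0.12 and 4.09 ± 0.47. The proteoglycan gene Dcn fell (-1.95 ± 0.16), as did Tnxb, of the fibril-bound tenascin X (-2.95 ± 0.34), and Cspg4, a membrane proteoglycan of pericytes and a collagen VI receptor (-0.89 ± 0.17). Antxr1 (0.20 ± 0.13) and Antxr2 (-0.05 ± 0.12), receptors of collagen VI and of anthrax toxin, and Matn4 (0.28 ± 0.47) were not called.

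By WT day 14 against WT day 7, 7 of the 9 rose, with Matn4 at 4.09 ± 0.50, Antxr1 at 1.12 ± 0.13, Matn3 at 1.11 ± 0.39, Matn2 at 0.92 ± 0.12, Dcn at 0.66 ± 0.15, Bgn at 0.60 ± 0.12 and Cspg4 at 0.59 ± 0.17. Tnxb (0.62 ± 0.32) and Antxr2 (0.05 ± 0.12) were not called. At WT day 14 against WT day 0, 5 rose, Antxr1 (1.32), Bgn (1.98), Matn2 (1.52), Matn3 (5.20) and Matn4 (4.37), and Dcn (-1.29) and Tnxb (-2.32) fell, while Cspg4 and Antxr2 had -0.31 and 0.00.

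In KO day 7 against WT day 7, 5 of the 9 partner genes rose and none fell. Cspg4 averaged 205.2 CPM in KO day 7 and 93.0 CPM in WT day 7 libraries (log2 change 1.14 ± 0.17, edgeR adjusted p = 0.0003), Tnxb 360.7 CPM in KO and 151.5 CPM in WT (1.25 ± 0.32), and Antxr1 545.2 CPM in KO and 346.8 CPM in WT (0.65 ± 0.13). Matn2 (0.60 ± 0.12) and Bgn (0.48 ± 0.12) were the other two. Dcn (0.21 ± 0.15), Antxr2 (0.21 ± 0.12), Matn4 (1.16 ± 0.46) and Matn3 (-0.16 ± 0.39) were not called. At day 14 only Matn2 of the 9 was called, at 392.4 CPM in KO and 282.7 CPM in WT libraries (0.47 ± 0.12, edgeR adjusted p = 0.0478). In KO day 14 against KO day 7, 5 rose, Matn4 (2.68 ± 0.47), Matn2 (0.79 ± 0.12), Antxr1 (0.70 ± 0.13), Dcn (0.67 ± 0.15) and Bgn (0.42 ± 0.12).

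Correlations of log2 CPM over the 20 libraries are given here as a description, since libraries of a group share their treatment. Col6a1 and Col6a2 had a Pearson correlation of 0.998, and Col16a1 was next to Col6a1 at 0.99, the highest values of each among 15200 candidate genes. After the group means were removed, the correlation was still 0.98 for Col6a1 with Col6a2, 0.88 for Col6a1 with Col16a1 and 0.71 for Col8a1 with Col12a1. It was -0.11 for Col6a2 with Col8a1 and -0.17 for Col12a1 with Col18a1. Before the group means were removed Col15a1 was least like the rest, at 0.06 (Col12a1) to 0.38 (Col6a1) with all but Col8a2, with which it had 0.63. After they were removed it had 0.01 with Col12a1, 0.13 with Col8a1 and 0.39 with Col14a1. With the others it then had 0.54 (Col8a2) to 0.65 (Col6a3), so it no longer stood apart.

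The genes whose profile was closest outside the 10 were Cd276 for Col6a1 and Col18a1 (0.984 and 0.978), Col1a1 for Col6a2 (0.99), Col5a1 for Col6a3 (0.981), Ak5 for Col8a1 (0.992) and Matn4 for Col8a2 (0.955). For Col12a1 the closest was Igsf10 (0.987), for Col14a1 the basement membrane gene Nid1 (0.981), for Col15a1 Osbpl5 (0.942) and for Col16a1 Aebp1 (0.984).

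The authors' deposited table of comparisons covers 13266 genes and all 10 collagen genes. In the authors' deposited table the calls of the 10 were those found here in each of 4 comparisons, namely 9 at WT day 7 and 9 at WT day 14 against WT day 0, 6 at KO day 7 and 1 at KO day 14 against WT of the same day, and no log2 change differed by more than 0.02. The columns of the authors' deposited table headed as KO day 14 against WT day 7 held the interaction instead, equal to the difference of its genotype columns within 2e-09. For Col6a1 the authors' deposited table gives -0.49 there.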

How the data were processed

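The authors deposited raw counts per gene, whole numbers for 24885 genes in 20 libraries. FastQC, STAR and the build mm10 were used, per the submitters' processing notes. Their versions, how reads were counted and whether strand was used are not given in the sources at hand, so reads from opposite strands cannot be told apart. The authors also deposited a table of edgeR comparisons with log2 fold changes and log2 CPM, and with their own p-values, per the file headers.

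Here, counts were fitted in R 4.3.3 with edgeR 4.0.16 (filterByExpr, TMM, robust quasi-likelihood, 1 mean per group, all 20 libraries), with calls made below 0.05 after Benjamini-Hochberg adjustment over 18918 genes. The scripts were tested on simulated data. The prior count for log2 CPM was 2. A two-sided exact permutation test (70 arrangements) was run for each collagen gene. Depth was 32.3 to 63.5 M counts per library, and no 2 libraries of a group were duplicates (smallest chi-square per degree of freedom 14.1). Lengths are of the longest principal transcript in GENCODE vM21, chosen after the merged exons of Col6a2 (8.33 kb, against 3.95 kb) were seen to be far longer.

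Other settings tried were RLE scaling, upper-quartile scaling, no filter, a filter of 1 CPM in 4 libraries, DESeq2 1.42.0, limma-voom (limma 3.58.1), the compared groups alone, a replicate block, a muscle score covariate and leaving out libraries. The collagen genes and the lists of other genes were chosen with earlier results of these data known. Named genes were all 10 collagens, all tested partners of collagen VI, up to 6 called other collagens with the smallest p and at least 1 CPM in a group, and the 3 most similar genes of each collagen, of which the closest are printed.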

Additional observations from a re-analysis of the deposited data

Results flagged for a closer look

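In 3 of 50 gene and group combinations, the highest or lowest of 4 libraries stood apart from the other 3 by more than Dixon's 95% critical value for 4 samples, where chance alone flags about 1 in 20 groups. Col6a1 had 1375.2 CPM in WT day 0 replicate 2, against 1222.0 to 1246.3 CPM in the other WT day 0 libraries. Col6a1 had 2646.1 CPM in WT day 7 replicate 4, against 2272.5 to 2314.0 CPM in the others. Col8a2 had 281.2 CPM in WT day 14 replicate 1, against 423.2 to 434.9 CPM in the others, and that library was lowest of its group for all 10 genes.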

How the results depend on the processing

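Of the values recomputed under other settings, 1241 kept their direction and their side of the threshold, 25 lost a call, 15 gained one and 29 changed sign, and none of those that changed sign was called. In KO day 14 against WT day 14, the number of the 10 genes called was 1 with the settings used, 0 without a filter, with limma-voom, with the replicate block and with the compared groups alone, 2 with DESeq2 and 2 without WT day 14 replicates 1 and 4 (chosen after seeing the data), and 0 to 6 when 1 library was left out. All genes called there were 759 with DESeq2, 86 with the compared groups alone and 152 to 1672 when 1 library was left out, against 337. The interaction had 190 called genes with DESeq2 and 0 to 11 when 1 library was left out. The fit with a muscle covariate called 5876 genes at WT day 7 against WT day 0, 3041 at WT day 14 against WT day 7 and 924 at KO day 7 against WT day 7. When 1 library was left out, 1440 to 2659 genes were called at KO day 7 against WT day 7, 1693 to 2956 at KO day 14 against KO day 7, and of the 10 genes 5 to 6 were called between genotypes at day 7, 3 to 4 at KO day 14 against KO day 7, and 6 to 10 at WT day 14 against WT day 7. The cause of these moves was not tested.

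Replicate numbers did not pair the libraries, since deviations of same-numbered libraries correlated at -0.143 to 0.272. The replicate block changed 1 call among the 10 genes, Col15a1 at KO day 14 against WT day 14 (0.87, edgeR adjusted p = 0.0555).

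The log2 changes that changed sign were all near 0. Col15a1 at WT day 14 against WT day 0 had 0.005 with the muscle covariate and -0.29 to 0.047 with 1 library left out. At KO day 7 against WT day 7, Col8a1 had 0.013 with limma-voom and -0.20 to 0.23 with 1 library left out, and Col14a1 had 0.23 with the muscle covariate and -0.17 to 0.041 with 1 library left out. At KO day 14 against WT day 14, Col12a1 had 0.010 with limma-voom, 0.006 with the replicate block and -0.081 to 0.14 with 1 library left out, and Col14a1 had -0.15 without WT day 14 replicates 1 and 4 and -0.043 to 0.20 with 1 library left out. Col18a1 at KO day 14 against KO day 7 ranged over -0.007 to 0.19. For the interaction, Col6a3 had 0.006 with upper-quartile factors and with limma-voom, 0.037 with the muscle covariate, 0.039 without WT day 14 replicates 1 and 4 and -0.17 to 0.17 with 1 library left out, and Col14a1 had -0.12 with the muscle covariate, -0.12 without WT day 14 replicates 1 and 4 and -0.008 to 0.27 with 1 library left out.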
